A study of Homo sapiens with 10 samples.

Results

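Nuclear genes for the subunits of mitochondrial oxidative phosphorylation were followed in human neuroblastoma cells of the lines SK-N-FI and SK-N-AS, with and without exposure to BG-P1600-TAT. Members were the genes whose platform symbols start with NDUFA, NDUFB, NDUFC, NDUFS, NDUFV, UQCR, COX4 to COX8 or ATP5, together with SDHA, SDHB, SDHC, SDHD and CYC1, and without the NDUFAF assembly factors. The rule found 80 genes among 17687 symbols, each with 1 probe set. Complex I had 33 members, complex II 3, complex III 9, complex IV 17 and complex V 18. Of the 80 genes, 74 encode subunits. The others were the divergent noncoding transcript NDUFV1-DT, the near copies UQCRHL and ATP5MGL, the readthrough ATP5MF-PTCD1, the supercomplex factor COX7A2L and the ATP synthase inhibitor ATP5IF1. SDHB, NDUFA4 and the subunits encoded by mitochondrial DNA were not analysed here.

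Whole-transcript arrays measured 4 groups. For SK-N-FI there were 2 controls and 2 treated samples. For SK-N-AS there were 3 of each, on arrays numbered 25, 26 and 27 (control) and 28, 29 and 30 (treated). Treated cells received 30 µM BG-P1600-TAT for 48 h, and controls received PBS for the same time. The series title names this conjugate as PEGylated and directed at the norepinephrine transporter and thyrointegrin αvβ3. Titles of the SK-N-AS arrays write BG-P-TAT, which was taken to be the same conjugate. The design text gives SK-N-FI more biological replicates than the 2 of each condition used below. No label says that the SK-N-AS arrays are separate cultures, so p-values there reflect array-to-array spread that may be technical. The labels call SK-N-AS primary, although it is an established line. Each line stands for 1 tumour, and in bulk RNA fewer cells of a type and less RNA per cell cannot be told apart.

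Oxidative phosphorylation couples the oxidation of fuel to the making of ATP in the inner mitochondrial membrane. Complexes I and II pass electrons from NADH and succinate to coenzyme Q, complex III passes them on to cytochrome c, complex IV reduces oxygen, and the proton gradient built on the way drives ATP synthase, complex V. Most subunits are encoded in the nucleus, and several of complex IV have isoforms that are restricted to muscle, lung or testis.

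Signal was deposited as log2 values, and a probe set was called above background on an array where it passed the 95th percentile over that array's 612 negative controls. By that measure 69 of the 80 members were above background on every array, and between 69 and 71 were on any single array, whereas 32.9% to 44.3% of all 21448 gene probe sets were. The 11 exceptions were NDUFS7, NDUFV1-DT, UQCRHL, COX4I2, COX6A2, COX6B2, COX7A1, COX7B2, COX8C, ATP5MGL and ATP5MF-PTCD1. Of these, UQCRHL was above background on 3 of 4 SK-N-FI and all 6 SK-N-AS arrays, COX7A1 on 1 SK-N-AS control array, and the other 9 on none. Precision is limited by how few arrays there are. The noradrenergic markers DBH, which makes noradrenaline, and SLC6A2, the norepinephrine transporter, had SK-N-FI control means of 14.1 and 13.98. Their SK-N-AS control means, 6.28 and 5.89, came from arrays all below background. Of 9 noradrenergic markers, 5 were lower in SK-N-AS in both scalings described below, and of 8 mesenchymal markers 4 were higher (FN1 and FOSL1 among them) and 1, CD44, was lower.

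Gene probe sets had array medians of 6.61 to 6.62 (SK-N-FI) and 5.75 to 5.81 (SK-N-AS), as separate normalization of each line would leave. Line and run cannot be told apart, and a difference between lines is therefore given on the deposited values and again after quantile normalization of all 10 arrays. Median SK-N-AS minus SK-N-FI differences of the control groups were -0.59 on the log2 scale for the 80 members as deposited and 0.62 after quantile normalization. Over all gene probe sets the medians were -0.61 and 0.04. Over the 5834 probe sets above background on every array, they were -1.31 and 0.19. On both scales the members' median thus lay above that of the detected probe sets as a whole. Members share arrays and scaling, and no test was run on the list.

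**Figure D1:**
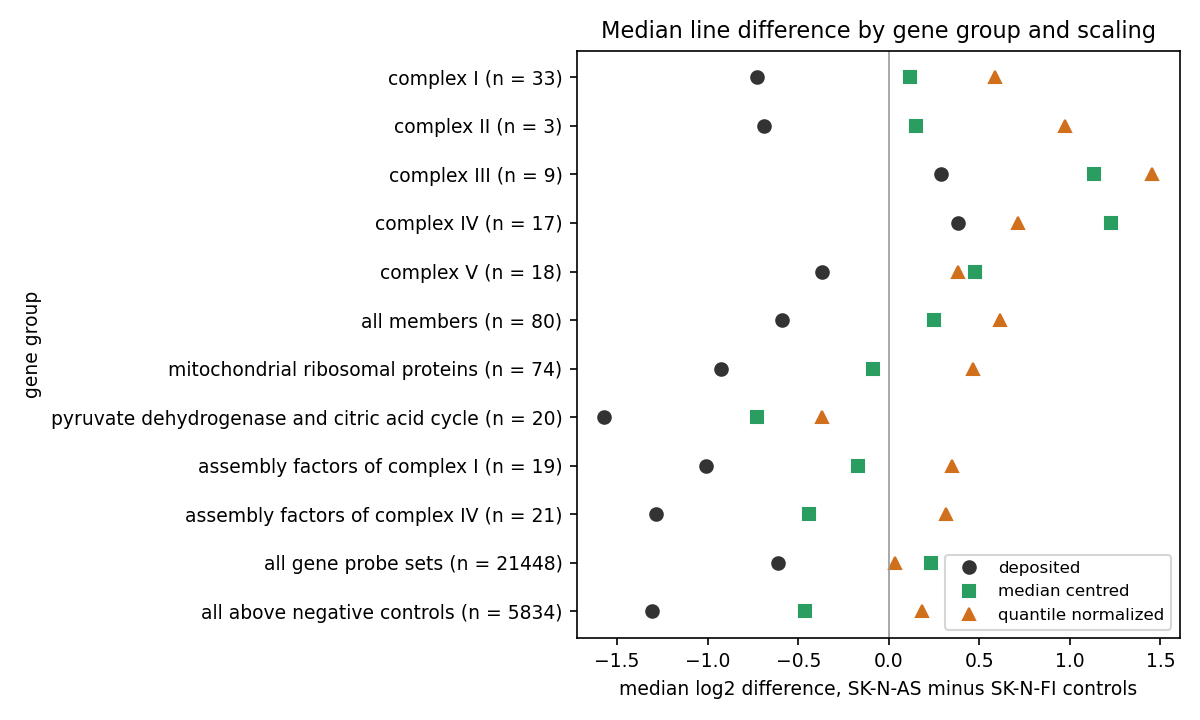
Median log2 difference of SK-N-AS minus SK-N-FI control arrays (x axis) for each complex and for other gene groups (y axis), as deposited (circles), after centring each array on its median (squares) and after quantile normalization (triangles). The members' median is -0.59 as deposited, 0.25 after median centring and 0.62 after quantile normalization, and complexes III and IV are above 0 in all 3.

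Control arrays of the lines differed for many members, and the direction that most took turned with the scaling. On deposited values, 50 of 80 members passed limma's test (Benjamini-Hochberg adjusted over all gene probe sets, threshold 0.05), 13 higher and 37 lower in SK-N-AS. The background was 59.3% of all gene probe sets, with 11.5% higher and 47.8% lower. After quantile normalization 43 members passed, 38 higher and 5 lower, against a background of 46.6%, with 24.1% higher and 22.5% lower. Median centring of the arrays called 44 members, 31 higher and 13 lower, against a background of 62.7%, with 34.9% higher and 27.8% lower. The difference changed sign for 33 members, in 32 of them from lower to higher. The exception was ATP5PF, a peripheral stalk subunit, whose difference was 0.80 as deposited and -0.17 after quantile normalization. NDUFA7, NDUFV3, SDHA, UQCR10 and COX7A2 were called in opposite directions. Without SK-N-FI control array 1 or 2, fewer members were called on deposited values. These fits leave 1 SK-N-FI control array, which is assumed to vary like the other groups. Whether calls fell alike over all gene probe sets is not given here.

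A set of 17 members was called the same way on both scales. Over all gene probe sets 33.9% were, 11.4% higher and 22.5% lower, so that the members' 12 higher lay near the background and their 5 lower below it. The 12 higher in SK-N-AS were NDUFB1, NDUFB9, UQCRB, UQCRH, UQCRHL, COX6A1, COX6C, COX7A1, COX7B, COX8C, ATP5MJ and ATP5PD. The 5 lower were NDUFA9, SDHD, UQCRC1, COX8A and ATP5F1B. Median centring and cyclic loess normalization also called all 12 of the higher members and called NDUFA9, SDHD and UQCRC1 lower. COX8A was not called after median centring (-0.49), and ATP5F1B changed sign there (0.23). The calls of NDUFB1, NDUFB9, COX7B, ATP5PD, NDUFA9, SDHD, UQCRC1 and COX8A on deposited values held when any single control array was left out. The other 9 each lost theirs in at least 1 such fit, with the sign kept. Without SK-N-FI control array 1 these were UQCRB (0.65), UQCRH (0.64), UQCRHL (0.81), COX6A1 (0.72), COX6C (0.54), COX7A1, COX8C and ATP5F1B (-0.65). Without SK-N-FI control array 2 they were UQCRB (0.72), UQCRH (0.78), COX7A1, COX8C, ATP5MJ (0.61) and ATP5F1B (-0.56). Without SK-N-AS array 25, UQCRH (0.54), UQCRHL (0.74), COX7A1 and ATP5MJ (0.57) were not called. Without array 26 the calls of COX8C and ATP5F1B (-0.48) were lost, and without array 27 those of UQCRB (0.58), COX7A1 and COX8C. COX8C was below background on all 10 arrays and COX7A1 on 9 of them, so no difference is given for either.

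**Figure D2:**
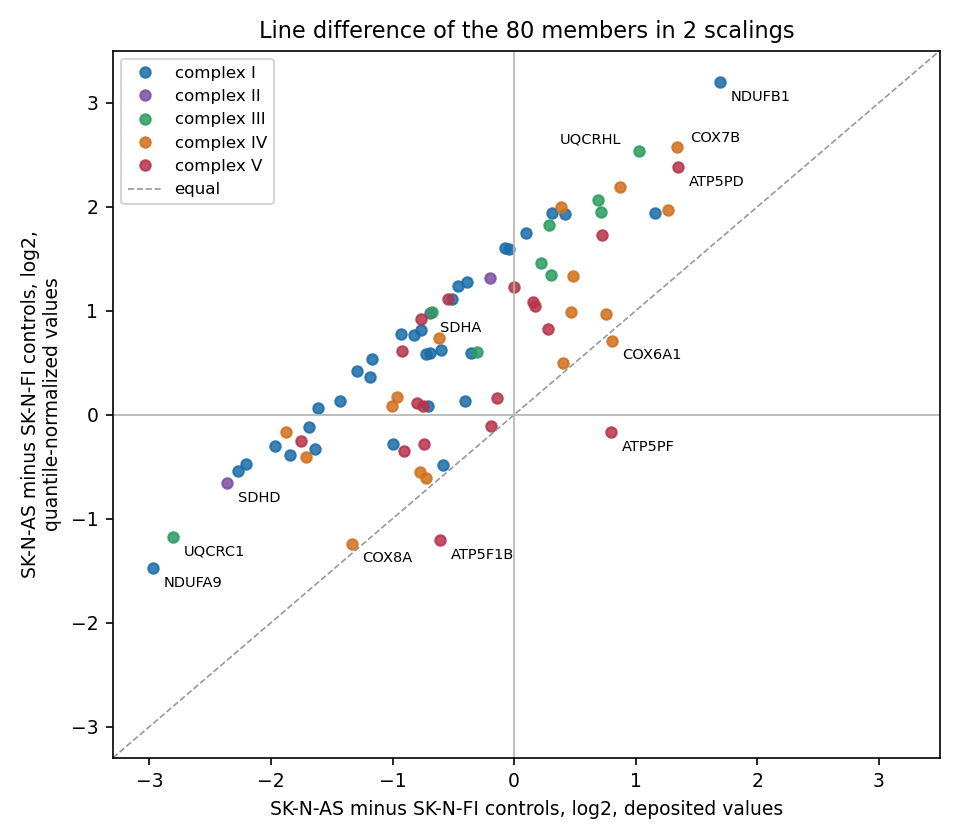
Each point is 1 of the 80 members, with its SK-N-AS minus SK-N-FI control difference on deposited values (x axis, log2) and after quantile normalization (y axis, log2), coloured by complex, and the dashed line marks equal values. NDUFB1 stands at 1.69 and 3.19, NDUFA9 at -2.97 and -1.48, and ATP5PF is the only point right of 0 and below 0.

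Promoters of 8 of these members are shown, 4 from each direction, since NRF1, GABP and YY1 are known regulators of many of these genes. Sequences are the 120 bases before the annotated start, on the gene's strand, from RefSeq of GRCh38.p14. Capitals mark matches on either strand to the NRF1 motif (GCGC, any base, T, then GCGC) or CCGGAAG (the ETS core bound by GABP). The first 4 genes were lower and the last 4 higher in SK-N-AS, and of these 8 the GABP core is in SDHD, COX8A, UQCRH and ATP5PD and the NRF1 motif in NDUFA9, SDHD and UQCRC1. Of the higher members not shown, ATP5MJ and COX8C hold the NRF1 motif and COX6A1 the GABP core. A contrast of the directions therefore cannot be read from these 8. The stretches lie at chr12:4648994-4649113 (NDUFA9, plus strand), chr11:112086753-112086872 (SDHD, plus), chr3:48609647-48609766 (UQCRC1, minus), chr11:63974500-63974619 (COX8A, plus), chr14:92121707-92121826 (NDUFB1, minus), chr1:46303578-46303697 (UQCRH, plus), chrX:77899348-77899467 (COX7B, plus) and chr17:75046970-75047089 (ATP5PD, minus).
NDUFA9: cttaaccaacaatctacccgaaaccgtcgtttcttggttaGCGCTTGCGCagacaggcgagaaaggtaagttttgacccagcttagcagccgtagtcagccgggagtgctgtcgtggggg
SDHD: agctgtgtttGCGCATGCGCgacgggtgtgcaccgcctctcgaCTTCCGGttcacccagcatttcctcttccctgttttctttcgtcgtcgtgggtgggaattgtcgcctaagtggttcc
UQCRC1: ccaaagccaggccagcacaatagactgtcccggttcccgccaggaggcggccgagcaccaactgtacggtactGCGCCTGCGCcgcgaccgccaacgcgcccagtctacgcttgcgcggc
COX8A: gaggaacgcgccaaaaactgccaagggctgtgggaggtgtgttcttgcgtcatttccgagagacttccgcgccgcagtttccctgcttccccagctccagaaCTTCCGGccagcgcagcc
NDUFB1: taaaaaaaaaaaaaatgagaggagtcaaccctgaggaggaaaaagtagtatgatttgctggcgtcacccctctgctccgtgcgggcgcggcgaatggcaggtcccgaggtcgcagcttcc
UQCRH: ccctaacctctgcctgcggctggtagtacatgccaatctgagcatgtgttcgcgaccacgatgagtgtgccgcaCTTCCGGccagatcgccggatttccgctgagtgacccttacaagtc
COX7B: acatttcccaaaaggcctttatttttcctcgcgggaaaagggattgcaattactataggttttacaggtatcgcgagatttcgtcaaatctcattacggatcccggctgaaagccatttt
ATP5PD: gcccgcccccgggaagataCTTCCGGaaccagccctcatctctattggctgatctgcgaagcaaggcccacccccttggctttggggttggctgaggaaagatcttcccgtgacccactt

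A RefSeq promoter was held for 64 of the 80 members and was searched from 250 bases before to 50 after the start, on both strands. The NRF1 motif was found in 15 of the 64 (23.4%), against 6.28% of all 27305 promoters. The GABP core was found in 17 (26.6%, against 10.7%) and the YY1 motif AAGATGGCG in 7 (10.9%, against 1.85%). At least 1 of these 3 was in 33 member promoters (51.6%, against 17.0%), whereas TATAAA was in 7 (10.9%, against 12%). The NRF1 motif can match on both strands at 1 site, and each promoter was counted once. The background took every gene with a promoter held, on the arrays or not, and was not matched to the members in kind or expression. Among the 17 members called the same way on both scales, 7 of the higher and 4 of the lower had a promoter, of which 2 and 3 held the NRF1 motif and 3 and 2 the GABP core. A match describes letters only.

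Complex I oxidises NADH, and its members held the largest differences in either direction. NDUFB1, an accessory subunit of the membrane arm, read 10.30 and 10.93 in SK-N-FI controls and 12.73, 12.001 and 12.19 in SK-N-AS controls. Every SK-N-AS array was above every SK-N-FI array, by 1.69 on the deposited log2 scale (95% interval 1.03 to 2.35, limma adjusted p = 0.000379), which is 3.23-fold, and by 3.19 after quantile normalization. Among all gene probe sets, 17.2% had SK-N-AS control arrays wholly above the SK-N-FI ones as deposited. NDUFB9, also of the membrane arm, read 13.72 and 13.86 against 15.04, 15.00 and 14.80, a difference of 1.16 (adjusted p = 0.000539 by limma) and 1.94 after quantile normalization.

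NDUFA9, an accessory subunit at the junction of the peripheral and membrane arms, went the other way. Its SK-N-FI control arrays read 12.73 and 12.80 and its SK-N-AS control arrays 10.05, 9.41 and 9.92. The groups did not overlap, which held as deposited for 73.1% of all gene probe sets, 56% with SK-N-AS lower. The level was 7.83-fold higher in SK-N-FI as deposited (log2 difference -2.97, interval -3.62 to -2.31, limma adjusted p = 3.43e-06) and 2.79-fold higher after quantile normalization (-1.48, adjusted p = 0.00195). Over the 33 complex I members, the median difference was -0.73 as deposited, with 2 called higher and 19 lower, NDUFS7 among the lower. After quantile normalization it was 0.58, with 12 higher and 1 lower. The background was 11.5% higher and 47.8% lower as deposited, and 24.1% higher and 22.5% lower after quantile normalization. The 4 core subunits measured, NDUFS3, NDUFS7, NDUFV1 and NDUFV2, had a median of -1.09 as deposited and 0.04 after quantile normalization. Without NDUFS7, which was below background on all 10 arrays, the medians were -1.19 and 0.36. The 28 accessory subunits had medians of -0.72 and 0.59.

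Complex II, succinate dehydrogenase, also belongs to the citric acid cycle. As deposited its 3 members were all lower in SK-N-AS, 2 of them called, and after quantile normalization SDHA and SDHC were called higher. The background was 47.8% called lower as deposited and 24.1% called higher after quantile normalization. SDHD, a membrane anchor subunit, read 11.38 and 11.12 in SK-N-FI controls and 8.85, 8.70 and 9.13 in SK-N-AS controls. It was 5.13-fold higher in SK-N-FI as deposited (log2 difference -2.36, interval -2.89 to -1.83, limma adjusted p = 4.03e-06) and 1.58-fold higher after quantile normalization (-0.66, adjusted p = 0.0375). SDHA, the flavoprotein that oxidises succinate, had means of 9.20 ± 0.40 (SD, n = 2) and 8.51 ± 0.15 (SD, n = 3). Its difference was -0.69 as deposited (limma adjusted p = 0.0328) and 0.97 after quantile normalization (adjusted p = 0.0092), so that its direction rests on the scaling. The deposited call was lost without SK-N-FI control array 1 (-0.41), SK-N-AS array 25 (-0.66) or array 26 (-0.64). SDHC, the other anchor, had arrays that overlapped between the lines, at 11.53 and 11.70 against 11.61, 11.16 and 11.48. It was not called as deposited (-0.20, limma adjusted p = 0.464) and was called higher after quantile normalization (1.32, adjusted p = 0.000599).

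In complex III, the cytochrome bc1 complex, 2 of 5 small subunits (UQCRB and UQCRH) were called higher in SK-N-AS as deposited, against a background of 11.5%. UQCR10, also small, was called lower (-0.68) but higher after quantile normalization (0.98). UQCRB, a small subunit that binds near the quinone site, read 11.95 and 12.02 in SK-N-FI controls and 12.63, 12.49 and 12.88 in SK-N-AS controls. The difference was 0.69 (limma adjusted p = 0.0156) and 2.06 after quantile normalization. UQCRH, the hinge protein beside cytochrome c1, read 12.39 and 12.54 against 13.52, 13.06 and 12.96. It was higher in SK-N-AS by 0.71 (limma adjusted p = 0.0317) and by 1.95 after quantile normalization. Its intronless near copy UQCRHL was higher by 1.03 and 2.53, and since probes could read both genes the assignment of either is uncertain.

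UQCRC1, a core subunit, read 11.91 and 11.88 in SK-N-FI controls and 9.44, 8.68 and 9.16 in SK-N-AS controls. It was 6.98-fold higher in SK-N-FI as deposited (log2 difference -2.80, interval -3.39 to -2.22, limma adjusted p = 2.19e-06) and 2.26-fold higher after quantile normalization (-1.18, adjusted p = 0.00581). The other core subunit, UQCRC2, differed by -0.30 as deposited (not called) and by 0.60 after quantile normalization, and CYC1, the cytochrome c1 that hands electrons to cytochrome c, by 0.29 (not called) and 1.83. After quantile normalization all 9 members of complex III were called, 8 higher and UQCRC1 lower, where the background was 46.6%. As deposited 3 were called higher and 2 lower, where it was 59.3%, and the median of the complex was 0.29 as deposited and 1.46 after quantile normalization.

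Complex IV, cytochrome c oxidase, had called members in both directions on deposited values, 5 higher and 7 lower of 17. The background was 11.5% higher and 47.8% lower. COX8C among the higher and COX6A2 and COX7B2 among the lower were below background on every array. COX7A1, also among the higher, was above background on 1 SK-N-AS control array only. COX7B, a small subunit, read 12.05 and 12.40 in SK-N-FI controls and 13.65, 13.54 and 13.50 in SK-N-AS controls. It was 2.53-fold higher in SK-N-AS (log2 difference 1.34, interval 0.85 to 1.83, limma adjusted p = 0.000228) and 5.97-fold higher after quantile normalization. COX6C had control means of 12.05 ± 0.47 (SD, n = 2) and 12.92 ± 0.06 (SD, n = 3), a difference of 0.87 as deposited and 2.19 after quantile normalization. COX5A, a nuclear subunit chosen after its values were seen, differed by -1.71 (limma adjusted p = 0.000139) and by -0.41 after quantile normalization, where it was not called.

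Of the isoforms of complex IV, the general ones were above background. COX8A, the ubiquitous form, read 15.86 and 15.78 in SK-N-FI controls and 14.46, 14.39 and 14.60 in SK-N-AS controls. It was 2.52-fold higher in SK-N-FI (log2 difference -1.34, interval -1.89 to -0.78, limma adjusted p = 0.00063) and 2.36-fold higher after quantile normalization. The alternative form COX8C was below background on all 10 arrays, so its call carries no fold. Its control means were 4.24 ± 0.31 (SD, n = 2) for SK-N-FI and 4.99 ± 0.42 (SD, n = 3) for SK-N-AS.

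COX6A1, the liver or general form, was above background everywhere and higher in SK-N-AS on both scales, by 0.80 (limma adjusted p = 0.00648) and 0.71, whereas COX6A2, the heart and muscle form, was not above background on any array (control means 7.19 for SK-N-FI and 6.18 for SK-N-AS). COX4I1, the general form of the regulatory subunit 4, read 10.63 and 11.27 in SK-N-FI controls against 9.71, 8.76 and 8.77. Its difference of -1.87 (limma adjusted p = 0.000321) was -0.17 and not called after quantile normalization. COX4I2, the lung form, was below background throughout, at 5.07 and 4.84 against 4.51, 4.43 and 3.61. COX6B1, the general form of subunit 6B, differed by -0.96 as deposited (limma adjusted p = 0.00857, not called without SK-N-FI control array 2) and by 0.17, not called, after quantile normalization. Its testis form COX6B2 and COX7B2, the testis form of COX7B, were below background on every array.

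COX7A2, the general form of subunit 7A, differed by -0.62 as deposited and by 0.73 after quantile normalization, called in opposite directions, and the deposited call was lost without any 1 of both SK-N-FI control arrays and SK-N-AS arrays 26 and 27 (-0.69 to -0.51). The muscle form COX7A1 had control values of 4.91 and 5.43 in SK-N-FI, both below background, and of 7.26, 5.62 and 6.41 in SK-N-AS, where array 25 alone was above it. COX7A2L, which helps to join complexes III and IV, was called higher in SK-N-AS after quantile normalization (0.99, limma adjusted p = 0.00478) and not as deposited (0.47, adjusted p = 0.133).

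**Figure D3:**
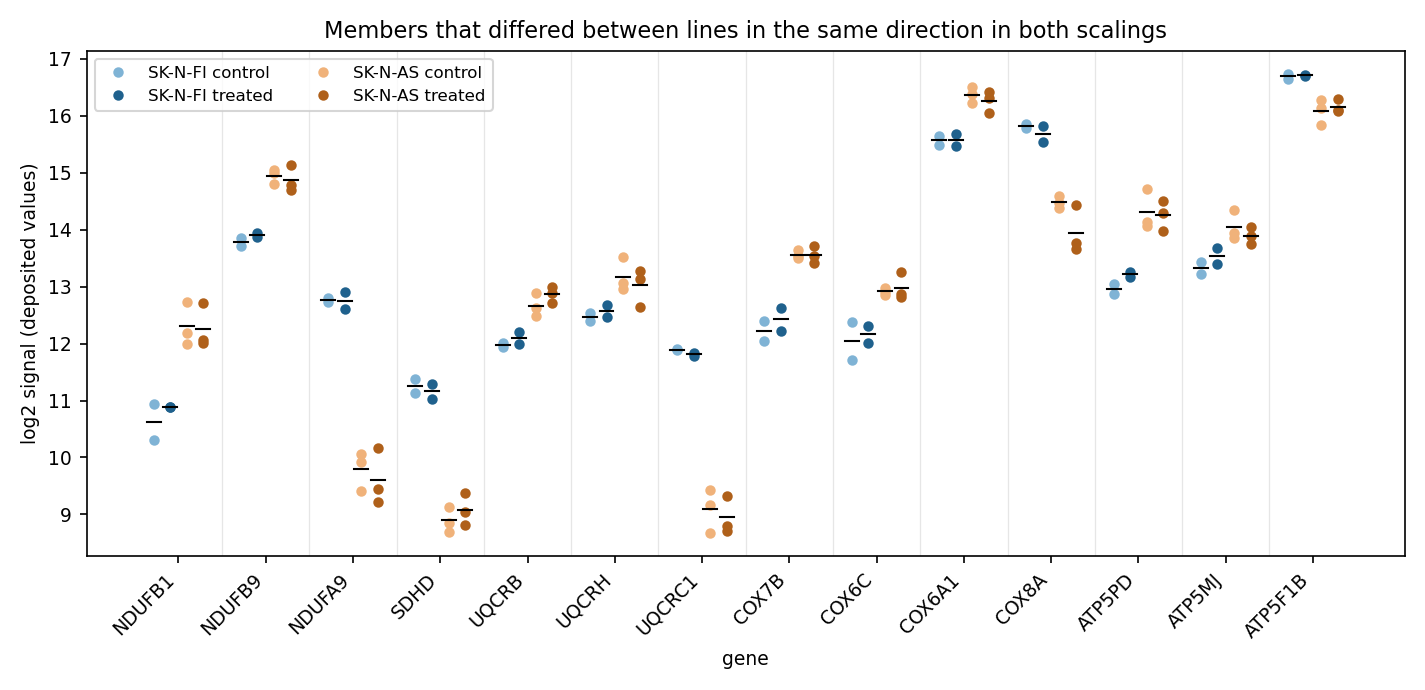
Deposited log2 signal (y axis) on every array for 14 members called the same way in both scalings (x axis), with light and dark points for control and treated arrays of SK-N-FI (blue) and SK-N-AS (orange) and a bar at each group mean. UQCRHL, COX7A1 and COX8C are left out because not all arrays were above background. Levels of different genes are not comparable, and within a gene the bars of both SK-N-AS groups lie on the same side of both SK-N-FI bars.

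In complex V, the ATP synthase, a stalk subunit was higher and the catalytic beta subunit lower in SK-N-AS as deposited and after quantile normalization. ATP5PD, a subunit of the peripheral stalk that holds the catalytic head still, read 12.87 and 13.04 in SK-N-FI controls and 14.71, 14.14 and 14.06 in SK-N-AS controls. It was 2.55-fold higher in SK-N-AS (log2 difference 1.35, interval 0.80 to 1.90, limma adjusted p = 0.000547) and 5.21-fold higher after quantile normalization. ATP5F1B, the catalytic beta subunit, was among the brightest members and read 16.65 and 16.74 against 16.29, 15.83 and 16.13. Its SK-N-AS arrays were all below its SK-N-FI arrays, by 0.61 on average as deposited (difference -0.61, limma adjusted p = 0.0276) and by more after quantile normalization (-1.21, adjusted p = 0.000417). The median over all gene probe sets was also -0.61 as deposited, and 56% of them had SK-N-AS control arrays wholly below the SK-N-FI ones. ATP5F1B is among the 2 members with a mean signal above 16, which quantile normalization moved by a median of -0.78. Its sign changed after median centring, and its deposited call was lost in some fits that left out a control array.

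By place in the enzyme, the 4 peripheral stalk subunits had a median difference of 0.48 as deposited and 1.06 after quantile normalization, and the 4 measured subunits of the catalytic head and central stalk had medians of -0.68 and 0.50. The 3 genes for the c ring, ATP5MC1, ATP5MC2 and ATP5MC3, had medians of -0.91 and 0.16. ATP5IF1, which blocks the enzyme when it would run backwards, read 12.15 and 12.47 against 10.89, 10.41 and 10.37. It was lower in SK-N-AS as deposited (-1.75, limma adjusted p = 3.93e-05) and not called after quantile normalization (-0.25). ATP5MJ, a small membrane subunit, was higher on both scales, by 0.72 and 1.73.

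The shift that quantile normalization gave a member differed with its signal. The 12 members with a mean signal below 9 moved by a median of 0.38, ranging from 0.087 to 1.666. Members with a mean signal of 9 to 12 moved up by a median of 1.635, those of 12 to 14 by 1.23 and those of 14 to 16 by 0.54, while the 2 members above 16 moved by -0.78. Among all 11255 gene probe sets within the 10th to 90th percentile of the members' signal, the median line difference was -1.43 as deposited and -0.01 after quantile normalization. The members' medians of -0.59 and 0.62 were thus higher than those of the probe sets in this range on either scale. The range is wide and is not a close match in signal. Of its 11255 probe sets, 5572 were above background on every array, whereas most members were.

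The same comparison between the treated groups, whose means come from other arrays but which shares 1 estimate of spread with the control comparison, gave 42 called members on deposited values, 9 higher and 33 lower in SK-N-AS, against a background of 59%, with 11.2% higher and 47.8% lower. After quantile normalization it also gave 42, of which 36 were higher and 6 lower, against a background of 45.4%, with 23.5% higher and 21.9% lower. Median centring gave 43, of which 29 were higher and 14 lower, against a background of 61.6%, with 34.1% higher and 27.5% lower. Without SK-N-FI treated array 2, which leaves 1 treated array of that line, fewer members were called higher on deposited values. Called the same way in controls and treated arrays were 9 higher and 32 lower members as deposited, and 35 higher and 4 lower after quantile normalization. Over all gene probe sets 52.9% were called the same way in both as deposited (9.21% higher and 43.7% lower) and 38.9% after quantile normalization (20.3% higher and 18.6% lower). Between treated groups 15 members were called alike in both scalings, 9 higher and 6 lower, against a background of 32.9%, with 11.1% higher and 21.8% lower. In both sets of arrays and both scalings, NDUFB1, NDUFB9, UQCRB, COX6A1, COX6C, COX7A1, COX7B, COX8C and ATP5PD were called higher and NDUFA9, UQCRC1, COX8A and ATP5F1B lower in SK-N-AS. Of these, COX8C was below background on every array and COX7A1 was above it on 1 SK-N-AS control array only. ATP5F1B changed sign after median centring in both sets of arrays. SDHD was lower on the treated arrays as deposited (-2.08, limma adjusted p = 1.21e-05) but was not called after quantile normalization (-0.40). COX5A and ATP5MF, the latter a membrane subunit whose probes may also read the transcript joined with PTCD1, were called lower on both scales on treated arrays. The difference of the treatment effects was not called for either.

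Exposure to BG-P1600-TAT for 48 h gave no called change of any member in either line. Limma called 0 of 80 members and 0% of all 21448 gene probe sets in SK-N-FI, in SK-N-AS and for the difference of the effects. At an unadjusted p under 0.05 there was 1 member in SK-N-FI (COX4I2), 1 in SK-N-AS (COX7B2) and 0 for the difference. Within the lines it held for 611 and 557 of the 21448 gene probe sets. The 95% interval of the change lay within a 2-fold change in either direction in SK-N-FI for 77 of 80 members (96.2%, background 84.9%). In SK-N-AS it did so for 75 (93.8%, background 82.1%). For the difference of the effects the number was 32 (40%, background 36.6%).

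**Figure D4:**
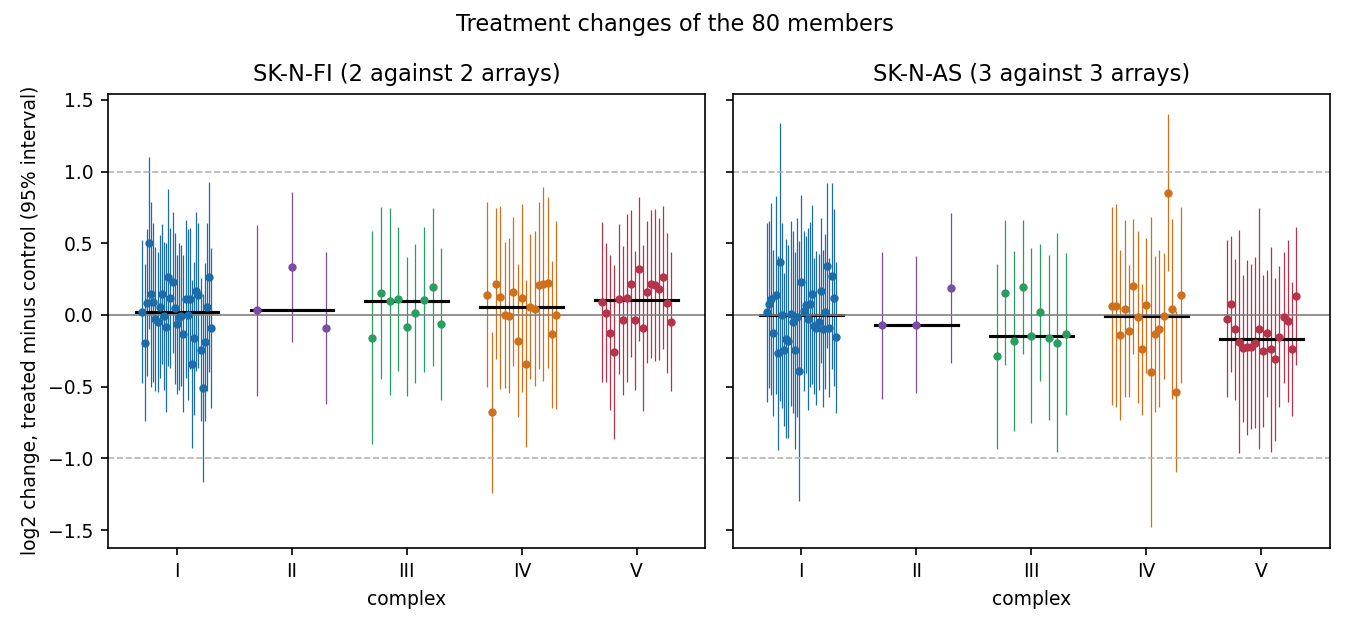
Log2 change of each of the 80 members, treated minus control (y axis), by complex (x axis), for SK-N-FI (left) and SK-N-AS (right), with 95% intervals as thin lines, the median of each complex as a black bar and dashed lines at a 2-fold change. Most intervals span 0 and stay inside the dashed lines, and the largest positive change in SK-N-AS, 0.85, is that of COX7B2, a gene below background.

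In SK-N-FI the median change of the members was 0.06, with 50 higher and 30 lower means, and for all gene probe sets it was -0.01. For 20 members (25%) the treated arrays lay wholly apart from the controls, against a background of 27.8%. Of the 20, 13 were higher (background 13.8%) and 7 lower (background 14%). In complex I, NDUFA12, an accessory subunit, read 11.13 and 11.63 in controls and 12.03 and 11.72 in treated arrays. The groups did not overlap, yet the interval of the change spanned 0 (0.50, -0.10 to 1.10, limma adjusted p = 1). SDHC, the complex II anchor, read 11.53 and 11.70 against 11.82 and 12.09, also without overlap and without a call (0.33, -0.19 to 0.86).

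In complex V, 8 of 18 members did not overlap, 7 of them higher in treated arrays, against backgrounds of 27.8% and 13.8%. After quantile normalization it was 6 of 18, 5 of them higher, against 28.1% and 14.5%. ATP5MF read 15.13 and 15.31 in controls and 15.47 and 15.60 in treated arrays (0.32, interval -0.18 to 0.82), and ATP5PD read 12.87 and 13.04 against 13.18 and 13.25 (0.26, -0.23 to 0.76). COX4I2, below background on all 4 arrays, gave the smallest unadjusted p (-0.68, interval -1.24 to -0.12, limma adjusted p = 1). NDUFS7, a core subunit of complex I that was also below background, had a change of -0.51, COX7A1 of -0.34, UQCRHL of 0.20, UQCR10, a small subunit of complex III, of 0.15 and SDHD of -0.09. None of these was called.

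In SK-N-AS the median change of the members was -0.06, with 30 higher and 50 lower means, and for all gene probe sets it was -0.005. Only COX7B2 had treated arrays that did not overlap with the controls (1.25% of members, against a background of 7.31%, with 3.29% higher and 4.02% lower). It read 3.19, 3.24 and 2.54 in controls and 3.88, 3.70 and 3.95 in treated arrays, all below background (0.85, interval 0.30 to 1.40, limma adjusted p = 1). COX8A read 14.46, 14.39 and 14.60 in controls and 14.43, 13.66 and 13.76 in treated arrays. Array 28 lay among the controls and the other two below them, and the change was not called (-0.53, interval -1.09 to 0.03).

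Complex V means were lower in treated SK-N-AS arrays for 16 of 18 members, with a median of -0.17, and none was called. These members moved together by array and are not separate evidence. Their mean deviation from the line mean was 0.30, -0.12 and 0.03 on control arrays 25, 26 and 27. On treated arrays 28, 29 and 30 it was 0.21, -0.15 and -0.26. ATP5PF, of the peripheral stalk, read 17.78, 17.90 and 17.63 in controls and 17.74, 17.51 and 17.33 in treated arrays (-0.24, interval -0.71 to 0.23). The near copy ATP5MGL, below background, had a change of -0.31. Of the other members with the smallest p-values in their complexes, the changes were 0.34 for NDUFS7, -0.24 for NDUFA7, an accessory subunit of complex I, 0.19 for SDHD, -0.07 for SDHC, -0.29 for CYC1 and 0.20 for UQCRB. In the comparison of the effects of the lines, NDUFS7 had the smallest p (difference 0.85, interval -0.04 to 1.74). ATP5MF followed (-0.57, interval -1.31 to 0.17), then COX4I2 (0.74), COX7B2 (0.64) and NDUFA12 (-0.63), and limma's adjusted p was 1 for each.

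Members moved together between arrays of 1 group in SK-N-AS. Averaged over the 80 members, the deviation from the line mean was 0.25, -0.14 and -0.05 on control arrays 25, 26 and 27 and 0.26, -0.08 and -0.25 on treated arrays 28, 29 and 30. Arrays 25 and 28 were high and array 30 was low, so that the spread within a group was larger than the difference between groups. For 35 members the highest of the 6 values was on array 25, against 4955 of all 21448 gene probe sets. For 30 members it was on array 28, against 3723 of all gene probe sets. The 74 mitochondrial ribosomal protein genes moved alike, with deviations of 0.22 and 0.17 on arrays 25 and 28 and -0.14 on array 30, while all gene probe sets above background stood at -0.07, 0.00 and 0.02. In SK-N-FI the members' deviations lay between -0.06 and 0.07. Leaving out arrays 25 and 28 gave 50 called members in the control comparison of the lines, 10 higher and 40 lower, and 0 for treatment in SK-N-AS. With all arrays 13 were higher and 37 lower. The share of all gene probe sets called without these arrays is not given here. What sets these arrays apart was not tested.

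**Figure D5:**
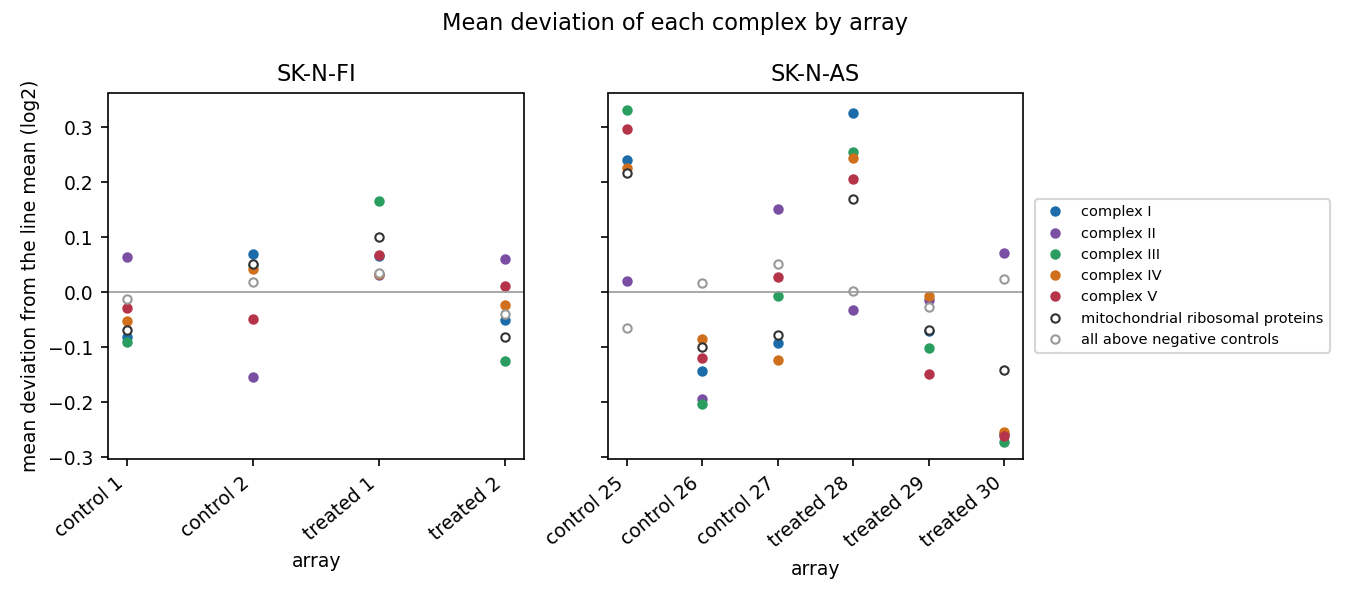
Mean deviation from the line mean (y axis, log2, deposited values) on each array (x axis) for every complex (filled points), the mitochondrial ribosomal protein genes and all gene probe sets above background (open points). In SK-N-AS, complexes I, III, IV and V lie above 0 on arrays 25 and 28 and below 0 on array 30, whereas complex II, with 3 members, stands at 0.02, -0.03 and 0.07 there.

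Genes that build or serve the chain were taken from lists, and their counts called alike in both scalings stand against the same background of 33.9%, with 11.4% higher and 22.5% lower. Among 19 assembly factors of complex I, 1 was higher and 4 were lower in SK-N-AS controls in both scalings. TIMMDC1, which helps to assemble the membrane arm, was higher by 1.83 as deposited and 3.02 after quantile normalization. DMAC2, named for the distal membrane arm, was lower (-3.15 and -1.73), as was NDUFAF1 (-2.66 and -0.96). Among 21 assembly factors of complex IV, 2 were higher and 3 lower. COA6 and COX17 carry or mature copper sites, and they differed in direction, COA6 at 1.55 and 3.11 and COX17 at -2.53 and -0.93. COX10, which takes part in making the heme of the complex, had a control mean of 10.1 on SK-N-FI arrays and one of 6.77, below background, on SK-N-AS arrays, and COA8 was higher (1.95 and 3.43).

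For complexes II and III, 1 of 10 factors was higher (SDHAF4, below background in SK-N-FI and above it on 2 of 3 SK-N-AS control arrays, with no fold as deposited and at least 2.06-fold after quantile normalization) and 1 lower (UQCC1, -2.49 and -0.79), and none of 4 factors of complex V was called alike in both. Of 21 regulators of mitochondrial transcription and DNA, 4 were higher and 6 lower. TFAM packages mitochondrial DNA and starts its transcription, and its control means were 13.7 ± 0.14 (SD, n = 2) for SK-N-FI and 9.91 ± 0.62 (SD, n = 3) for SK-N-AS. The difference was -3.77 as deposited (limma adjusted p = 7.2e-06) and -2.44 after quantile normalization. TFB2M, its partner in transcription, went the other way (1.46 and 3.002). ESRRG, a nuclear receptor known to drive oxidative genes, was lower (-4.76 and -3.24), and GABPB2, a GABP subunit below background in SK-N-FI, was higher, with no fold as deposited and at least 2.22-fold after quantile normalization. Such bounds set the mean of the brighter line against the background threshold of the dimmer.

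The 20 genes of pyruvate dehydrogenase and the citric acid cycle had medians of -1.57 as deposited and -0.37 after quantile normalization, with 0 higher and 7 lower in both. PDHX, which anchors a subunit of pyruvate dehydrogenase, stood at -3.50 and -1.88 and SUCLA2, of succinyl-CoA ligase, at -3.09 and -1.51. On both scales that median was below the one of the oxidative phosphorylation members. Of 13 genes of coenzyme Q synthesis, 1 was higher (COQ6) and 2 were lower (COQ10A and COQ4). COQ6 was below background in SK-N-FI controls, with no fold as deposited and at least 2.40-fold after quantile normalization. COQ4 was above background on 1 SK-N-FI control array and 0 SK-N-AS ones, with at least 1.48-fold as deposited and no fold after quantile normalization. Of 7 cytochrome c and carrier genes 1 was higher, VDAC2, the outer membrane channel (0.54 and 1.13). The 74 mitochondrial ribosomal protein genes had medians of -0.93 and 0.46, with 3 higher, MRPS33 and MRPL24 among them, and 5 lower, MRPL18 and MRPL57 among them. In both lines 0 genes of these lists were called for treatment.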

How the data were processed

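Trizol-extracted total RNA carried a biotin label and was read on Affymetrix arrays, per the labels' protocols. What the authors deposited is 1 log2 signal for each probe set and array, with RMA and, as software, Transcriptome Analysis Console 4.0.1.36 listed per the submitters' processing notes. RMA, as commonly run, normalizes by quantiles, which would remove a change shared by most genes of a run. The table held 24351 probe sets, of which 2903 were controls and 21448 were tested.

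The members and gene lists were chosen with earlier results of these data known. Gene symbols came from the platform annotation and matched RefSeq for all 80 members. No member had several probe sets. Groups were taken from the titles. Treatment was tested in each line on that line's arrays (lmFit and eBayes of limma 3.58.1, R 4.3.3) without covariates. Both line comparisons and the difference of the effects came from 1 model of the 4 groups over 10 arrays. Benjamini-Hochberg adjustment of the p-values ran over every gene probe set, with a threshold of 0.05, and the fits were tested on simulated data.

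Named for the line comparison were, per complex, up to 3 members in each direction with the largest difference among those called alike as deposited and after quantile normalization. Named for treatment were the 2 members per complex with the smallest p, for the difference of the effects 5, and of each list up to 2 per direction. Isoforms of complex IV, SDH genes and ATP5IF1 were always named, and other members were chosen after their values were seen. Alternatives covered eBayes settings, array scaling, dim probe sets, array weights, all probe sets of the rule, a shared spread, a 2-fold threshold, a block on the replicate number in SK-N-FI and left-out arrays. Cyclic loess, the crossed block and leaving out arrays 25 and 28 together were added after seeing the data. Arrays have no count depth, and their number limits precision.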

Additional observations from a re-analysis of the deposited data

How the results depend on the processing

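Treatment counts were 0 members under every alternative run. In SK-N-FI the deviations of arrays that share a replicate number had a correlation of -0.17 over all gene probe sets. With 2 arrays per condition this cannot decide whether the numbers mark pairs. The replicate block and the crossed pairing each called 0 members, as every other setting did. In the control comparison of the lines, 13 members were called higher and 37 lower as deposited, against 38 and 5 after quantile normalization, 31 and 13 after median centring, 36 and 5 after cyclic loess, and 32 in all, 28 and 4, after quantile normalization with a 2-fold threshold. Over all 21448 gene probe sets, cyclic loess called 5280 higher and 5241 lower in controls, and 5197 and 5051 on treated arrays. For the 2-fold threshold and the left-out arrays, the share over all gene probe sets is not given here. On treated arrays, 9 higher and 33 lower members became 36 and 6, 29 and 14, 32 and 8, and 27 and 4 under the same settings. Other settings kept these counts within 1.5 times. Leaving out 1 array at a time, which leaves a single array in an SK-N-FI group, gave totals of 29 to 48, with 6 to 12 higher and 21 to 39 lower, in controls, and of 31 to 44, with 5 to 9 higher and 24 to 37 lower, on treated arrays. The lowest total in controls came without SK-N-FI control array 1 or 2.

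In controls the difference changed sign for 33 of 80 members after quantile normalization, 29 after median centring and 26 after cyclic loess. Among those that the rule named for this comparison of control arrays, the values after quantile normalization were COX6A2 0.086, COX6B1 0.17, COX7A2 0.73, SDHA 0.97 and SDHC 1.32. After median centring they were ATP5F1B 0.23, COX4I2 0.069, COX7A2 0.22, COX7B2 0.12, SDHA 0.15 and SDHC 0.64, and after cyclic loess COX6A2 0.069, COX7A2 0.56, SDHA 0.998 and SDHC 1.15. On treated arrays ATP5F1B stood at 0.29 after median centring. Leaving out 1 array at a time turned the sign of small treatment changes, which ranged from -0.22 to 0.036 for SDHD, from -0.019 to 0.41 for UQCRHL and from -0.061 to 0.37 for UQCR10 in SK-N-FI, and from -0.20 to 0.030 for SDHC in SK-N-AS. The cause was not tested.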
